A study of Rattus norvegicus with 18 samples.

Results

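The change of transcript levels between 3 h and 6 h after transection of the rat sciatic nerve was measured on 6 arrays, 3 of nerves taken at 3 h and 3 of nerves taken at 6 h, out of 18 arrays in a series of 6 time-points that runs from 0 h to 9 h. Both groups were selected by the time in their titles and were used whole, with all probes other than controls. The animals of every group were adult male Sprague-Dawley rats with no transgene or drug treatment, anaesthetised with trichloroacetaldehyde monohydrate, magnesium sulfate and sodium pentobarbital, and a piece of the left sciatic nerve was resected at mid-thigh. The tissue was a short segment of the stump that stays joined to the spinal cord, called proximal, so each array holds the RNA of Schwann cells, fibroblasts, vessels, resident and arriving leukocytes and cut axons together. No source says if RNA of several rats was combined for an array, so P-values measure the spread between these arrays, which may be technical. In such tissue, fewer cells of a type and less RNA per cell cannot be told apart.

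Schwann cells wrap peripheral axons in myelin, a membrane rich in cholesterol that they build themselves, and after a cut they leave that state for one that supports regrowth. In the first hours the nerve also releases chemokines, small proteins that draw leukocytes along a gradient. Neutrophils are known to arrive first and monocytes, which become macrophages, later. The step from 3 h to 6 h asks which transcripts were still moving after the earliest responses and in which direction.

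A level is given below as the log2 normalized signal, the log2 of the processed signal of a probe minus the 75th percentile of its array, so that a value below 0 is dimmer than that percentile. A difference is the level at 6 h minus the level at 3 h on this log2 scale. The 21 markers of myelin and Schwann cells that were tested summed to a linear level of 963 to 1250 on the arrays of 3 h and 890 to 938 on those of 6 h, and all 21 were well above background on the 6 arrays. The arrays were not alike in other ways. The share of spots well above background was 71.1%, 70.3% and 82.3% at 3 h and 93.5%, 79.1% and 73.4% at 6 h. The correlation of 6 h replicate 1 with the arrays of 3 h, 0.971 to 0.979, was about that with its own group, 0.978 at the lowest, whereas the other two arrays of 6 h correlated at 0.987. Skeletal muscle markers, which nerve fibres should lack, had a mean level of 0.16, 4.32 and -2.97 on the 3 arrays of 3 h and of 4.66, -3.35 and 1.97 on those of 6 h. They were highest on 3 h replicate 2 and 6 h replicate 1, with none of the 13 tested called, and their part in the results was not tested. Both groups were scanned on the same day, but all arrays of 6 h lay on 1 slide and those of 3 h on another pair, so slide and time cannot be told apart.

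Of 27187 genes tested, 1617 (5.95%) were called, by limma's moderated test over all 18 arrays with a P-value below 0.01 that stayed below 0.05 after Benjamini-Hochberg adjustment. Of these, 835 genes (3.07%) were higher at 6 h and 782 (2.88%) were lower. Large changes were mostly rises, with 243 genes higher and 65 lower by at least 2-fold. The median difference over all genes was -0.01. Every array of 6 h lay above every array of 3 h for 13.4% of the genes and below for 16.2%, which is the background for each such count below. Dim genes leaned upward. In the dimmest sixth of genes the median difference was 0.22, with 114 called higher and 5 lower, and in the brightest sixth it was -0.09, with 69 called higher and 251 lower. Of the 1474 genes called by their brightest probe, 43 higher ones were well above background on no array of 3 h. These counts rest on the spread estimated from all 18 arrays. A fit of the 6 arrays alone called 11 genes, background correction by normexp called 88, and leaving out both arrays with the most muscle transcripts called 270. With normexp the gene lists below held calls in 4 cases, with 2 CXC chemokines, 1 cytokine ligand, 1 antioxidant gene and 1 gene of the study's network, all higher. The cytokine ligand and the network gene were the same gene, Clcf1.

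**Figure D1:**
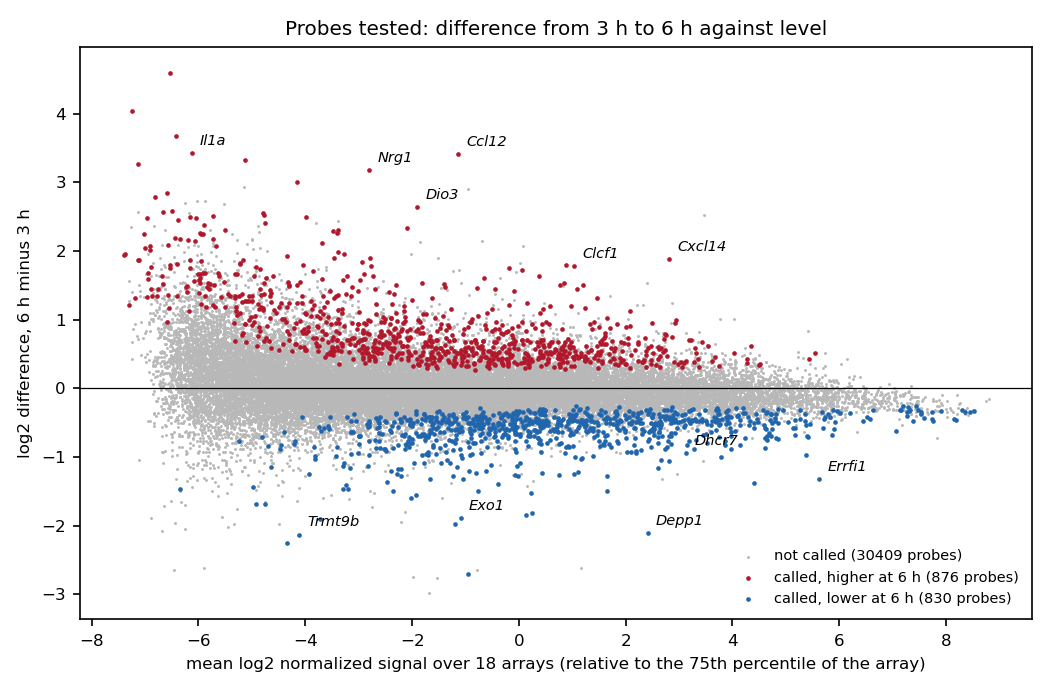
Difference between 6 h and 3 h (vertical axis, log2) against the mean log2 normalized signal over 18 arrays (horizontal axis) for every probe tested, with called probes in red where higher at 6 h and in blue where lower. The rises reached larger values than the falls and lay more among dim probes, and the falls extended to the brightest probes.

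Genes for secreted growth factors and peptides were among the largest rises. Nrg1, which encodes neuregulin 1, the ErbB ligand that governs Schwann cell growth and myelination, had levels of -3.81, -3.38 and -3.37 on the arrays of 3 h and of -0.15, -0.12 and -0.74 on those of 6 h. The groups were far apart, with a 9.08-fold rise (difference 3.18, SE 0.20, adjusted P-value 4.49e-06), and its other probe, at a difference of 2.49 (SE 0.11), moved the same way. The call was lost with normexp, where the difference was 1.87 (adjusted P-value 0.12), and under no other alternative. The probe lies on chromosome 16 at 64124972 to 64125031 of rn4. At 0 h the level was -4.64 ± 0.30 (SD, n = 3) and at 9 h 0.66 ± 0.20, so most of the climb seen over the series fell within these 3 hours. Clcf1, a cytokine of the CNTF family that acts through gp130, stood at 1.37, 1.94 and 2.10 at 3 h and at 3.69, 3.56 and 3.50 at 6 h. All arrays of 6 h were above those of 3 h by a clear gap (difference 1.78, SE 0.17, adjusted P-value 0.000305), and both its probes were called.

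Natriuretic peptides and a neuropeptide precursor were among the same rises. Nppb, which encodes the B-type natriuretic peptide, was at -2.93, -2.07 and -2.17 at 3 h and at -0.54, -0.25 and -0.44 at 6 h (difference 1.98, SE 0.45). Nppc, for the C-type peptide, was at -4.59, -4.73 and -4.68 at 3 h and at -2.10, -2.51 and -3.06 at 6 h (difference 2.11, SE 0.27). Its course was unlike the others, since the level was -3.82 ± 0.12 at 0 h and back at -4.27 ± 0.08 at 9 h. Vgf, which encodes a secreted precursor found in neurons and induced by neurotrophins, went from -2.49, -2.27 and -1.49 to -0.14, 0.09 and -0.33 (difference 1.95, SE 0.31). Its level had been -5.65 ± 0.34 at 0 h. Leaving out 3 h replicate 1 ended the call for Nppb (difference 1.71, adjusted P-value 0.0986), as did leaving out any array of 6 h (1.90 to 2.05, adjusted P-value 0.059 to 0.0678), but not those for Nppc and Vgf. With normexp the differences of Nppb, Nppc and Vgf were 1.25, 0.30 and 1.24 (adjusted P-values 0.229, 0.712 and 0.229) and none was called, and Vgf was not called without both arrays with the most muscle transcripts (1.87, adjusted P-value 0.0567).

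Dio3, which encodes the deiodinase that inactivates thyroid hormone, was at -2.11, -2.22 and -1.53 at 3 h and at 0.72, 0.68 and 0.67 at 6 h. This 6.25-fold rise (difference 2.64, SE 0.39, adjusted P-value 0.00361) was called under each of the 24 alternatives run, but the dimmer second probe of the gene had a difference of -0.34 (SE 0.42) and was not called. Clca4l, annotated as like a chloride channel accessory gene, rose from -5.02, -4.97 and -4.82 to -1.63, -1.76 and -2.37 (difference 3.01, SE 0.38), and its difference with normexp was 0.87 (adjusted P-value 0.329). Steap1, a metalloreductase of the cell surface, rose by 1.75 (SE 0.34) on the 2 arrays of 3 h left after an outlier spot was dropped and the 3 of 6 h. Its call was lost with normexp (1.69, adjusted P-value 0.0626), without 3 h replicate 1 (1.40, 0.112), in the deposited matrix (0.41, 0.795) and in the fit of the 6 arrays alone.

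Several chemokines rose, and among the ligands of the neutrophil receptor Cxcr2 some rose and 1 fell. Of 18 CC chemokines tested, 4 were called higher and 0 lower, against 3.07% and 2.88% of all genes. Of 14 CXC and CX3C chemokines, 3 were called higher and 1 lower. With normexp 0 of the CC chemokines and 2 of the others were called, all higher. The median difference was 0.28 and 0.25 in these lists, against -0.01 over all genes. It was 0.19 and 0.06 without 3 h replicate 1, 0.56 and 0.45 without 3 h replicate 3, and 0.05 and -0.01 with normexp, where the median of all genes was -0.41.

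Ccl12, a ligand of the monocyte receptor Ccr2, had the largest rise among named genes well above background on all 6 arrays. It was at -4.00, -2.54 and -0.85 at 3 h and at 0.96, 0.78 and 1.11 at 6 h (difference 3.41, SE 0.81, adjusted P-value 0.0276). The arrays of 3 h were spread over more than 3 log2 units and those of 6 h were close together, and the call was lost without any 1 array other than 3 h replicate 3 (differences 2.65 to 3.50, adjusted P-values 0.0635 to 0.115). Ccl20, the ligand of Ccr6, went from -3.74, -2.64 and -2.89 to -1.79, -1.05 and 0.35 (difference 2.26, SE 0.52). Ccl3, which binds Ccr1, went from -0.44, -0.09 and 0.89 to 1.97, 1.28 and 2.02 (difference 1.63, SE 0.36). Ccl22 rose by 1.35 (SE 0.35) at 1 probe, and its other probe had a difference of 0.00 (SE 0.20). The 2 probes were about equally bright, with mean levels of -3.14 and -3.23 over all arrays. Ccl7 had a difference of 1.24 (SE 0.36) that was not called, and Ccl2, the classical monocyte attractant, held a level near 6.5 with a difference of -0.02 (SE 0.24). The 4 calls became 0, 1 and 6 when replicate 1, 2 or 3 of 3 h was left out and 1, 2 and 0 without those of 6 h.

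Among CXC chemokines, Cxcl14, which is made by epithelia and fibroblasts, was at 2.36, 2.97 and 3.12 at 3 h and at 4.44, 4.95 and 4.70 at 6 h (difference 1.88, SE 0.24, adjusted P-value 0.00196). Cxcl3 went from 0.10, 0.92 and 1.62 to 2.26, 2.22 and 2.53 (difference 1.46, SE 0.32). Cxcl1 moved the other way, from 4.26, 4.90 and 5.08 to 4.18, 3.75 and 3.85 (difference -0.82, SE 0.20, adjusted P-value 0.0294). Both Cxcl1 and Cxcl3 draw neutrophils through Cxcr2. Cxcl6, another ligand of that receptor, was at -6.57, -4.77 and -5.34 at 3 h and at -2.54, -4.16 and -3.18 at 6 h (difference 2.26, SE 0.41), with 2 of the 3 arrays of 3 h and all 3 of 6 h well above background. With normexp its difference was -0.10. The calls for Cxcl1 and Cxcl3 were each lost when 1 of several arrays was left out, with a difference of -0.65 for Cxcl1 without 3 h replicate 3 and of 1.07 for Cxcl3 without 3 h replicate 1. Cxcl10 and Cxcl11, ligands of Cxcr3, had differences of -1.32 (SE 0.67) and -1.55 (SE 0.67) and were not called. Cxcl2 had a difference of 0.49 (SE 0.25).

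The stretches before the starts of Cxcl1 and Cxcl6 are shown because these genes share a receptor and had differences of opposite sign, although with normexp that of Cxcl6 was below 0 as well. The 250 bases upstream of each start come from the RefSeq promoter table, build GRCr8, and capitals mark matches to GGANTTTCC, a form of the NF-kB motif, on either strand.

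Cxcl1, chr14:17479322-17479571, minus strand: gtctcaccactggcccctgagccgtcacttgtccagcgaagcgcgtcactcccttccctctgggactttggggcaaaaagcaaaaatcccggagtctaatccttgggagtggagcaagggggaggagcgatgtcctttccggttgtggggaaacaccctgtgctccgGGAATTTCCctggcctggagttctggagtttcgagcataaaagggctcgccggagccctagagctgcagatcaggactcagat

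Cxcl6, chr14:17596418-17596667, minus strand: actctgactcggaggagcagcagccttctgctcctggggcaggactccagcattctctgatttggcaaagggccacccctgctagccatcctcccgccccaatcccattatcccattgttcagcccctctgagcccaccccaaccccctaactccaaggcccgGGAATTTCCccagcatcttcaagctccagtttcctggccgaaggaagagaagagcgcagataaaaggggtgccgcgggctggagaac

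Both stretches hold 1 match, 83 bases before the start in Cxcl1 and 87 in Cxcl6. Among 33469 promoters of this length 1.08% hold the motif, and 4 of the 12 promoters matched to the CXC and CX3C list and 0 of the 13 matched to the CC list do. The letters were chosen with the changes of these genes known, and a form 1 letter longer was searched first, with its counts not reported here. Of the NF-kB subunits and feedback genes, 18 were tested, 1 rose and 1 fell, against 3.07% and 2.88% of all genes. Nfkbia, whose product IκBα holds NF-kB in the cytoplasm and is itself an early target, fell from 4.16, 4.30 and 4.23 to 3.26, 3.15 and 3.28 (difference -1.0, SE 0.22), with the call lost without any 1 array other than 3 h replicate 3 (-0.96 to -1.03, adjusted P-values 0.0511 to 0.0664). Tnfaip2 rose by 0.91 (SE 0.18). Neither was called with normexp.

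Some other secreted ligands were called higher, several of them dim at 3 h. Of 32 cytokine ligands, 7 were called higher and 0 lower, against 3.07% and 2.88% of all genes. The median difference was 0.13, at 0.00 without 3 h replicate 1 and -0.20 with normexp. Ereg and Areg, ligands of the EGF receptor, had differences of 2.45 (SE 0.49) and 1.55 (SE 0.28). Il1rn, the antagonist of the IL-1 receptor, had one of 1.20 (SE 0.32), on arrays at 1.51, 2.06 and 3.06 at 3 h and at 3.26, 3.22 and 3.74 at 6 h. Il1a, at -7.67, -7.51 and -5.35 at 3 h and at -2.86, -4.19 and -3.21 at 6 h, had a difference of 3.42 (SE 0.51). It was well above background on 1 of the 3 arrays of 3 h and on all 3 of 6 h, as was Ereg. When ligands had to reach that mark on each of the 6 arrays, 29 were left, with 5 called higher and 0 lower. Csf1 and Il33 were called by a dimmer probe, and their brightest probes had differences of 0.51 (SE 0.17) and 0.42 (SE 0.14). With normexp the differences of the dim genes Il1a, Ereg and Areg were -0.16, -0.59 and 0.00. Il1b and Il6 had differences of 0.94 (SE 0.33) and 0.17 (SE 0.26) that were not called, and Csf3, the growth factor of neutrophils, had one of -1.05 (SE 0.33), which was called without 6 h replicate 1 (-1.44, adjusted P-value 0.0281). The 7 calls became 4, 6 and 8 when replicate 1, 2 or 3 of 3 h was left out, 5, 6 and 5 without those of 6 h, and 1 with normexp or without both arrays with the most muscle transcripts.

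Some markers of monocytes and macrophages rose. Of 24 markers of monocytes and macrophages, 4 were called higher and 0 lower, against 3.07% and 2.88% of all genes, with a median difference of 0.43. In 10 of the 24 every array of 6 h lay above every array of 3 h, against 13.4% of all genes. Ccr2, the receptor through which monocytes follow Ccl2 and Ccl12, was at -4.66, -4.22 and -3.35 at 3 h and at -2.25, -2.54 and -1.77 at 6 h (difference 1.89, SE 0.29, adjusted P-value 0.00439). With normexp its difference was 0.28 (adjusted P-value 0.72). Msr1, a scavenger receptor, rose by 1.47 (SE 0.30), Fcgr1a, a receptor for IgG, by 0.95 (SE 0.23), and Fcer1g, an adaptor of such receptors, by 0.61 (SE 0.17). The markers with negative differences were Aif1, Csf1r, Mrc1, Ms4a7, Adgre1 and the C1q genes, none of which was called. The 4 calls became 2, 2 and 8 when replicate 1, 2 or 3 of 3 h was left out, 3, 3 and 2 without those of 6 h, 2 without both arrays with the most muscle transcripts, and 0 with normexp or in a fit of the 6 arrays alone. The linear level summed over the list was 308 to 370 on the arrays of 3 h and 315 to 376 on those of 6 h.

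Fcnb, Serpinb10 and Ltb4r, which are known from myeloid cells, were among the 15 leading rises. Fcnb, ficolin B, a lectin stored in granules of neutrophils and monocytes, went from 0.30, 1.15 and 2.20 to 2.64, 2.54 and 3.83 (difference 1.79, SE 0.41). Serpinb10, a protease inhibitor of blood-forming cells, went from -3.32, -3.05 and -1.31 to -0.79, -1.09 and -0.26 (difference 1.84, SE 0.43). Ltb4r, the receptor for the attractant leukotriene B4, went from -3.92, -2.95 and -2.56 to -1.42, -1.62 and -1.06 (difference 1.78, SE 0.33). In all 3 genes 3 h replicate 3 was the highest of its group, and the calls for Fcnb and Serpinb10 were lost without 3 h replicate 1 (1.33, adjusted P-value 0.0948, and 1.46, 0.114), 3 h replicate 2 (1.75, 0.0723, and 1.60, 0.0974) or 6 h replicate 3 (1.37, 0.0839, and 1.62, 0.0897), and that for Serpinb10 without 6 h replicate 1 (1.88, 0.0683). With normexp none of the 3 was called, with differences of 1.89 for Fcnb, 0.82 for Serpinb10 and 0.66 for Ltb4r, nor without both arrays with the most muscle transcripts (1.94, 1.64 and 1.90). Of 15 neutrophil markers 0 were called by limma, with 4 at an unadjusted P-value under 0.05, against 21.6% of all genes. The median difference of the list was 0.10. This median ran from -0.01 without 3 h replicate 1 to 0.47 without 3 h replicate 3, and was -0.05 with normexp, 0.62 without both arrays with the most spots above background and 0.77 over the 13 markers well above background on all 6 arrays. With 3 h replicate 3 left out 1 marker was called higher, and with a replicate block 2 were. Itgam had a difference of 1.72 (SE 0.60, adjusted P-value 0.109), Mmp9 one of 1.13 (SE 0.35) and S100a8 one of 0.77 (SE 0.37). Bcl2a1, a survival factor of leukocytes, rose by 1.37 (SE 0.32), and Ptges, which makes prostaglandin E2, by 1.24 (SE 0.25). The call for Bcl2a1 was lost under 8 alternatives, with a difference of 0.59 with normexp, and that for Ptges under 5.

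**Figure D2:**
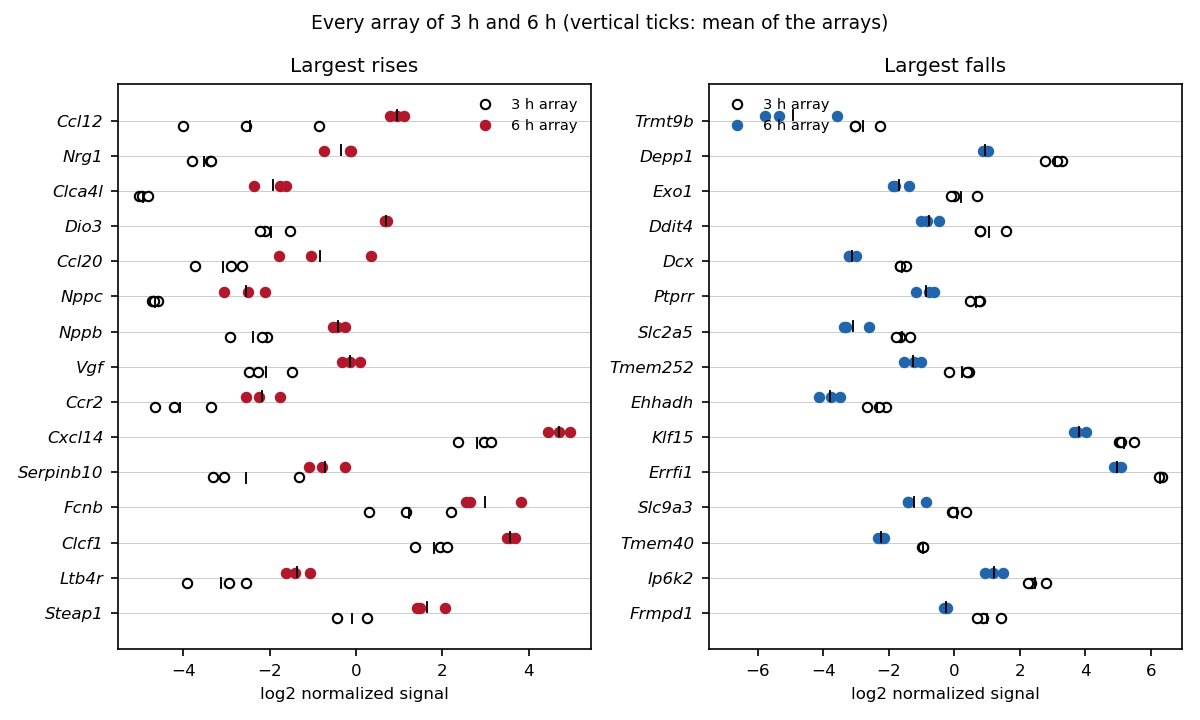
Log2 normalized signal (horizontal axis) on every array of 3 h (open circles) and 6 h (filled circles) for the 15 genes with the largest rises and the 15 with the largest falls, with short ticks at the mean of each group. The groups do not overlap in any of the 30 genes, as the rule for choosing them required, and the arrays of 3 h are widest in Ccl12, Serpinb10 and Fcnb.

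Genes known as targets of the glucocorticoid receptor were among the falls. Of 16 tested, 5 were called lower and 0 higher, against 2.88% of all genes called lower, and the median difference was -0.99. In 11 of the 16 every array of 6 h lay below every array of 3 h. Under each of the 24 alternatives the median of the list was lower than the median of all genes, by 0.52 to 1.13. Several of these, such as a higher fold limit or a fit of fewer time-points, leave the differences unchanged and could not move it.

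Ddit4, an inhibitor of mTORC1 that is also induced by hypoxia, was at 1.56, 0.77 and 0.79 at 3 h and at -0.83, -1.03 and -0.48 at 6 h (difference -1.82, SE 0.42, adjusted P-value 0.0264). Klf15, a transcription factor of amino acid and lipid breakdown, was at 5.47, 5.02 and 5.09 and then at 4.02, 3.65 and 3.74 (difference -1.38, SE 0.26). Errfi1, an inhibitor of ErbB receptors, was at 6.26, 6.34 and 6.24 and then at 5.09, 4.88 and 4.92 (difference -1.32, SE 0.24, adjusted P-value 0.00857). In all 3 the groups were well apart. At 9 h Klf15 and Errfi1 were at 3.85 and 4.75, after means of 3.81 and 4.96 at 6 h, and Ddit4 was at -0.33 after -0.78. For Errfi1 the level at 6 h was also that of 0 h, 4.90 ± 0.57, after 6.50 ± 0.10 at 1 h.

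Sgk1, a kinase that regulates ion channels, fell by 1.16 (SE 0.23), and Klf9, a transcription factor, by 1.06 (SE 0.23). Fkbp5, a chaperone of the receptor itself, was at 4.59, 4.47 and 4.44 at 3 h and at 3.87, 3.03 and 2.89 at 6 h, with a difference of -1.24 (SE 0.39) and an adjusted P-value of 0.0832. Zbtb16 was at 0.13, 0.06 and -0.01 and then at -1.52, -3.31 and -3.28 (difference -2.76, SE 0.89, adjusted P-value 0.0852). In both, 6 h replicate 1 was the array of its group nearest to 3 h. Per1, a clock gene of the list, had a difference of -1.15 (SE 0.47). The 5 calls became 1, 4 and 5 when replicate 1, 2 or 3 of 3 h was left out, 4, 3 and 5 without those of 6 h, 2 without both arrays with the most spots above background, 1 without both with the most muscle transcripts or in a fit of the 6 arrays alone, and 0 with normexp. With normexp the differences of Ddit4, Klf15, Errfi1, Sgk1 and Klf9 were -1.66, -1.13, -1.07, -0.93 and -0.82 (adjusted P-values 0.116 to 0.218). Single arrays ended the call for Ddit4 when 3 h replicate 1 (-1.56, adjusted P-value 0.107) or 2 (-1.96, 0.0545) or 6 h replicate 1 (-1.80, 0.0733) or 2 (-1.69, 0.0777) was left out, and for Klf15 when 3 h replicate 1 was (-1.25, 0.0507). Sgk1 lost its call without 3 h replicate 1 (-1.11, 0.0565), and Klf9 without 3 h replicate 1 (-1.04, 0.0683) or 6 h replicate 2 (-0.95, 0.064).

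Many genes of cholesterol synthesis fell, each by less than 2-fold. Of 26 tested, 11 were called lower and 0 higher, against 2.88% and 3.07% of all genes, and 25 had a negative difference. In 22 of the 26 every array of 6 h lay below every array of 3 h, against 16.2% of all genes. The median difference was -0.50.

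The enzymes run from acetyl-CoA through mevalonate and squalene to cholesterol, and called members were found along the whole path. Acat2, the first step, had a difference of -0.53 (SE 0.13) at its bright probe and of 0.13 (SE 0.62) at another, and Mvk, Pmvk and Mvd, which turn mevalonate into isopentenyl pyrophosphate, had differences of -0.63 (SE 0.12), -0.49 (SE 0.10) and -0.66 (SE 0.16). Idi1 and Fdps, which join these units, had -0.59 (SE 0.14) and -0.58 (SE 0.13), and Sqle, which opens the way from squalene to sterols, had -0.62 (SE 0.15). Msmo1 and Nsdhl, which strip methyl groups, had -0.62 (SE 0.13) and -0.49 (SE 0.13). Dhcr7, the last enzyme, moved most, from 3.42, 3.54 and 3.17 at 3 h to 2.37, 2.58 and 2.37 at 6 h (difference -0.94, SE 0.16, adjusted P-value 0.00703).

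Hmgcs1, which acts before mevalonate is made, was at 7.49, 7.37 and 7.37 at 3 h and at 6.83, 7.02 and 6.79 at 6 h, with a difference of -0.53 (SE 0.16) that was not called. Of the regulators, Insig1, which holds the sterol sensor in the endoplasmic reticulum, fell by 0.68 (SE 0.18), and Srebf2, the transcription factor of the pathway, had a difference of -0.62 (SE 0.20) that was not called. Dhcr7 stood at 3.52 ± 0.38 at 0 h and 3.38 ± 0.19 at 3 h, Msmo1 at 7.25 ± 0.31 and 7.27 ± 0.04, and Idi1 at 6.00 ± 0.28 and 6.17 ± 0.10, so the means at 3 h lay within 1 SD of those at 0 h, and at 9 h the 3 genes were at 2.70, 6.66 and 5.41.

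The calls of this list depended on the arrays and the scaling more than its direction did. The 11 became 4, 4 and 6 when replicate 1, 2 or 3 of 3 h was left out and 3, 8 and 5 without those of 6 h. They were 12 in the arrays of the scan day, 7 with quantile normalization, 1 with a shift to the median, 2 without both arrays with the most spots above background, and 0 without both with the most muscle transcripts, with normexp or in a fit of the 6 arrays alone. In 23 of the 24 alternatives the median of the list was lower than that of all genes, though several of them leave the differences unchanged. With normexp, where the median of all genes was itself -0.41, that of the list was -0.31, or 0.10 higher.

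The stretches before the starts of 3 of these genes are shown because the members moved together. The search was for CCAAT, the box bound by NF-Y, which is known to act beside SREBP on genes of this pathway, and for TCACNCCAC, a form of the sterol regulatory element, on both strands of the 250 bases upstream in the same RefSeq table (GRCr8). Capitals mark CCAAT, or ATTGG where it lies on the other strand.

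Mvd, chr19:67414975-67415224, minus strand: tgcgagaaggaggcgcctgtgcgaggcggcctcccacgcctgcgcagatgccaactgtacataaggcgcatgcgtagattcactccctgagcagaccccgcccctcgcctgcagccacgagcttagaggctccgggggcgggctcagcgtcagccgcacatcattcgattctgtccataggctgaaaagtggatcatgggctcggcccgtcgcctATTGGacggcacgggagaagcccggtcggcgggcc

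Idi1, chr17:66547525-66547774, minus strand: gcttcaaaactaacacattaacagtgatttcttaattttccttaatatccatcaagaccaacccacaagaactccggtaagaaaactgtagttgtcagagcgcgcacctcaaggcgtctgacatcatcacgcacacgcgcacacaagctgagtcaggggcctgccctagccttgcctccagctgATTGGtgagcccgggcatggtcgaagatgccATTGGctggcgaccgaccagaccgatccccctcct

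Insig1, chr4:8057770-8058019, minus strand: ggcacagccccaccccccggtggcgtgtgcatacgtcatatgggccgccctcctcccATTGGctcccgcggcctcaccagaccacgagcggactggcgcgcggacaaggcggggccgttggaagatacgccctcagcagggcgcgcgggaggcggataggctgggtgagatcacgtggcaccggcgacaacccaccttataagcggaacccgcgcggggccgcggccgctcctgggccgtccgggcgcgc

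Of the 19 promoters matched to this list, for 18 genes, 16 hold CCAAT, or 84.2%, against 34% of the 33469 promoters in the table. In Mvd it begins 35 bases before the start, in Idi1 66 and 35 and in Insig1 193. The letters of the sterol element were found in 0 of the 19 and in 0.974% of all promoters. The motifs were chosen after the fall of the list had been seen, and a match is no evidence of binding.

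Other falls were of single genes with diverse roles. Depp1, a target of FOXO factors and of progesterone, was at 3.27, 3.12 and 2.77 at 3 h and at 1.02, 0.87 and 0.95 at 6 h (difference -2.11, SE 0.38, adjusted P-value 0.00875). Exo1, an exonuclease of mismatch repair, was at 0.69, 0.00 and -0.10 and then at -1.39, -1.87 and -1.81 (difference -1.89, SE 0.20, adjusted P-value 0.000783). Ptprr, a phosphatase that inactivates MAP kinases, was at 0.48, 0.77 and 0.74 and then at -0.62, -0.79 and -1.18 (difference -1.53, SE 0.15, adjusted P-value 0.000305). The groups of all 3 were separate by wide margins, and leaving out any 1 array ended none of these calls. That for Depp1 was lost with normexp (-1.88, adjusted P-value 0.0655) and without both arrays with the most muscle transcripts (-2.11, 0.0739), and those for Exo1 and Ptprr in the fit of the 6 arrays alone.

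Trmt9b, a putative tRNA methyltransferase, had the largest fall among called, named genes well above background on all 6 arrays, from -2.28, -3.04 and -3.05 to -3.60, -5.79 and -5.36 (difference -2.13, SE 0.48), with 6 h replicate 1 nearest to 3 h. Its call was lost without 3 h replicate 1 (-1.87, adjusted P-value 0.0908) or 2 (-2.25, 0.0508) and without 6 h replicate 2 (-1.69, 0.0759) or 3 (-1.91, 0.0746). Dcx, a microtubule protein of young neurons, fell by 1.55 (SE 0.37), a call lost without any 1 array (-1.49 to -1.62, adjusted P-values 0.0586 to 0.0854). Slc2a5, which carries fructose, had a difference of -1.50 (SE 0.35) and Slc9a3, which exchanges sodium for protons, one of -1.32 (SE 0.26). Slc2a1, the main glucose transporter, fell by 0.59 (SE 0.09). Ehhadh, of peroxisomal fatty acid oxidation, fell by 1.46 (SE 0.20) and Ip6k2, an inositol phosphate kinase, by 1.27 (SE 0.24). Tmem252, Tmem40 and Frmpd1 fell by 1.49 (SE 0.27), 1.28 (SE 0.26) and 1.26 (SE 0.18). Without 3 h replicate 1 the calls for Slc2a5 (-1.38, adjusted P-value 0.101), Slc9a3 (-1.17, 0.0624), Ip6k2 (-1.11, 0.0532) and Tmem40 (-1.27, 0.0577) were lost, and Slc2a5 was also lost without 3 h replicate 2 or 6 h replicate 2 or 3 (-1.36 to -1.53) and Tmem40 without 6 h replicate 3 (-1.23).

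**Figure D3:**
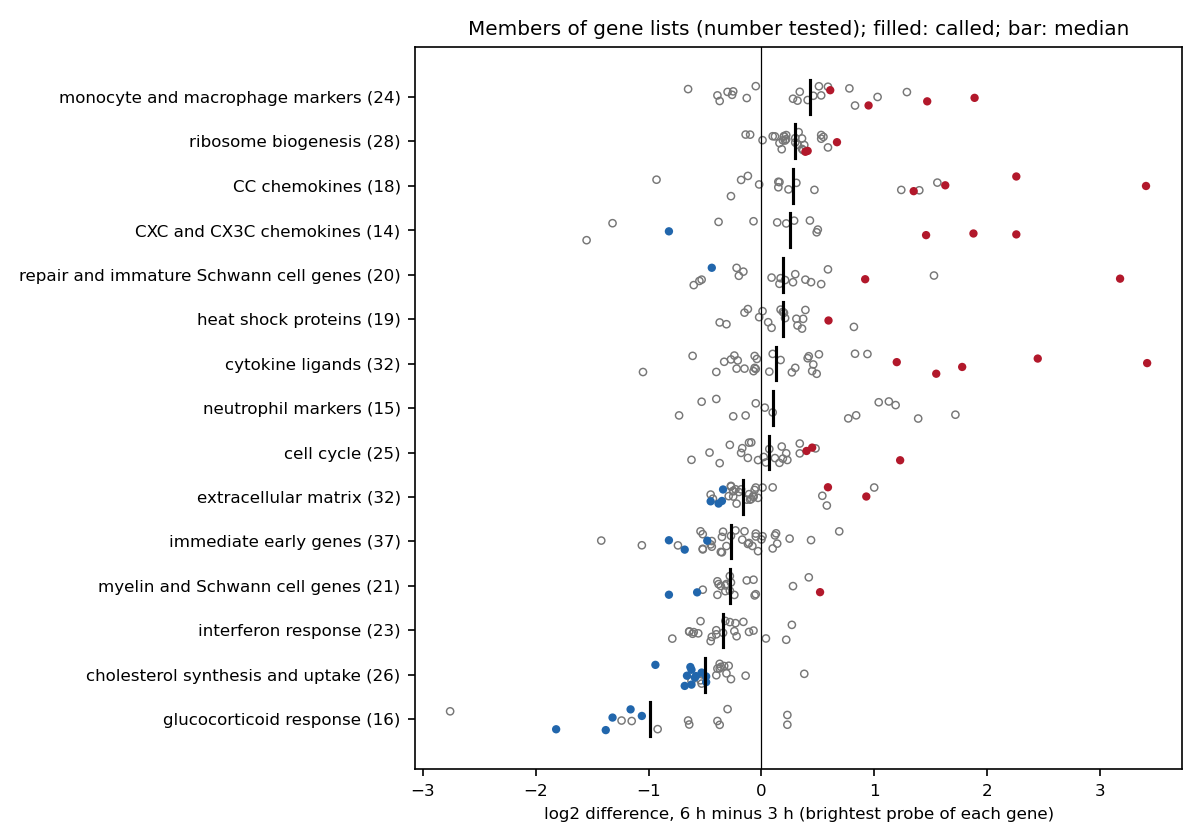
Difference between 6 h and 3 h (horizontal axis, log2) of each tested member of 15 gene lists (rows, with the number tested), filled where the brightest probe is called, with a bar at the median. The glucocorticoid and cholesterol lists lie farthest to the left, with medians of -0.99 and -0.50, and the single largest rises belong to cytokines, chemokines and Nrg1. With normexp the median of the cholesterol, interferon, myelin, matrix and immediate early lists was above that of all genes.

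Of 21 myelin and Schwann cell genes 1 was called higher and 2 lower, against 3.07% and 2.88% of all genes. The median difference was -0.28, with 18 of the 21 negative, and in 8 every array of 6 h lay below every array of 3 h, against 16.2% of all genes. With normexp the median of the list was -0.09, or 0.32 above that of all genes. Sox10, the transcription factor that defines the lineage, was at 5.37, 5.18 and 5.23 at 3 h and at 5.85, 5.93 and 5.55 at 6 h (difference 0.52, SE 0.13). Egr2, the transcription factor of the myelinating state, fell from 4.74, 4.55 and 4.19 to 3.63, 3.90 and 3.49 (difference -0.82, SE 0.17), and Cdh19, a cadherin of the lineage, fell by 0.57 (SE 0.15). All 3 calls were lost without 3 h replicate 1 (Sox10 0.58, Egr2 -0.70, Cdh19 -0.56) or 6 h replicate 1 (0.49, -0.80, -0.55), among other arrays. The structural gene Mbp had a difference of -0.32 (SE 0.26) and was not called. Of 20 genes of repair and immature Schwann cells, 3 were called higher and 1 lower. Nrg1, described above, was among them. The probes of Gdnf, a ligand of Ret, disagreed, with a difference of -0.22 (SE 0.26) for the bright one and of 0.94 (SE 0.21), called, for the dim one. Shh and Ngfr had differences of 1.53 (SE 0.42) and 0.59 (SE 0.18) that were not called, and L1cam, an adhesion molecule, fell by 0.44 (SE 0.11), a call lost under 13 alternatives. The 3 higher calls of the list became 1, 2 and 4 when replicate 1, 2 or 3 of 3 h was left out and 1, 1 and 2 without those of 6 h, and the lower one was lost without any 1 array other than 3 h replicate 3. With normexp 0 of the 20 were called.

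Of 32 genes of the extracellular matrix 2 were called higher and 6 lower, against 3.07% and 2.88% of all genes, and in 14 every array of 6 h lay below every array of 3 h, against 16.2%. The collagen chains Col1a1 and Col1a2 fell by 0.35 (SE 0.09) and 0.45 (SE 0.11) at their brightest probes. Other probes of Col1a1 were at -0.13 and -0.21 and that of Col1a2 at -0.31, and none of these was called. Sparc, which binds collagen, fell by 0.34 (SE 0.08) and the proteoglycan Lum by 0.38 (SE 0.10). Has2, which makes hyaluronan, rose by 0.93 (SE 0.24) and its receptor Cd44 by 0.59 (SE 0.16). Tnc had a difference of 1.00 (SE 0.28) that was not called. The 6 falls were 5 without 3 h replicate 3 and 0 without any of the other arrays, the 2 rises were lost without any 1 array, none of the 8 was called with normexp, and Col1a1 had a difference of 0.00 with quantile normalization. Of 27 proteases and inhibitors of the matrix, Mmp13 and Adam8 rose by 1.32 (SE 0.25, 0.23 with normexp) and 0.88 (SE 0.24), and Timp2 fell by 0.44 (SE 0.08). The call for Adam8 was lost without any 1 array other than 3 h replicate 3, and that for Mmp13 without 3 h replicate 1. Timp2 was not called with quantile normalization (-0.17), in the deposited matrix (-0.15) or with normexp (-0.17). Fibroblasts and perineurial cells had 12 markers, whose linear levels summed to 1530 to 1760 (3 h arrays) and 1360 to 1390 (6 h arrays). Of these markers 3 were called lower, 2 without 3 h replicate 3 and 0 without any of the other 5 arrays. None was called lower with normexp, with quantile normalization, with a shift to the median or in the arrays of the scan day. This list shares Col1a1, Col1a2 and Lum with the matrix list, so its sum and calls partly restate the fall of matrix genes. They are no separate measure of fibroblasts, whose part in that fall was not tested.

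A few immediate early genes, which answer a stimulus within minutes, fell. Of 37 tested, 3 were called lower and 0 higher, against 2.88% and 3.07% of all genes, and in 12 every array of 6 h lay below every array of 3 h, against 16.2%. The median difference was -0.27. The 3 calls became 1, 1 and 2 when replicate 1, 2 or 3 of 3 h was left out, 1, 2 and 1 without those of 6 h, and 0 with normexp or without both arrays with the most muscle transcripts. With normexp the median of the list was 0.16 above that of all genes. Nr4a1, an orphan nuclear receptor, fell from 6.15, 6.06 and 5.95 to 5.36, 5.49 and 5.29 (difference -0.68, SE 0.11, adjusted P-value 0.00524). Its level had been 6.77 at 1 h and was 5.33 at 0 h. Jund fell by 0.48 (SE 0.12), a call lost without any 1 array. Fos and Egr1, at 4.45 and 5.25 at 1 h, had differences of -0.44 (SE 0.33) and -0.31 (SE 0.28) between 3 h and 6 h. Fosl1, a late member of the AP-1 family, had one of 0.44 (SE 0.27).

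A few genes of ribosome assembly rose by small amounts. Of 28 tested, 4 were called higher and 0 lower, against 3.07% and 2.88% of all genes, 26 had a positive difference, and in 16 every array of 6 h lay above every array of 3 h, against 13.4% of all genes. The median difference was 0.30, and under each of the 24 alternatives it was above that of all genes, by 0.25 to 0.77. As above, several of the alternatives could not move it. Wdr43, Utp20 and Wdr12, which process ribosomal RNA, rose by 0.67 (SE 0.17), 0.41 (SE 0.09) and 0.39 (SE 0.10), and Nop56 was called by its dimmer probe at 0.67 (SE 0.14). With normexp the differences of Wdr43 and Utp20 were 0.07 and 0.05. Npm1 had a difference of 0.36 (SE 0.12). The 4 calls became 1, 2 and 5 when replicate 1, 2 or 3 of 3 h was left out, 1, 1 and 2 without those of 6 h, and 0 with normexp.

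Of 25 cell cycle genes 3 were called higher and 0 lower, against 3.07% and 2.88% of all genes. Cdkn2b, an inhibitor of Cdk4 and Cdk6, rose by 1.23 (SE 0.22), and the cyclins Ccnd1 and Ccnd3, which activate those kinases, rose by 0.40 (SE 0.10) and 0.45 (SE 0.10). The 3 calls became 2, 1 and 1 when replicate 1, 2 or 3 of 3 h was left out, 3, 1 and 1 without those of 6 h, and 0 with normexp, where the difference of Cdkn2b was 0.30 (adjusted P-value 0.489), or without both arrays with the most muscle transcripts. Ccnd1 lost its call under 12 of the 24 alternatives and Ccnd3 under 10. Cry1, a repressor of the circadian clock, went from 1.06, 1.02 and 1.13 to 2.17, 2.05 and 1.89 (difference 0.96, SE 0.18, adjusted P-value 0.00918) and was the 1 gene called among 17 of that list. Of 23 interferon response genes 0 were called by limma, with 1 at an unadjusted P-value under 0.05, against 21.6% of all genes. A negative difference was found in 20 of the 23, where the median difference over all genes was -0.01. Isg15 was at -0.40 (SE 0.45).

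Among the genes that the study set at the centre of its network, of TNF signaling and survival, Birc2 and Birc3, inhibitors of apoptosis, had differences of 0.08 (SE 0.09) and -0.05 (SE 0.25) and were not called. Tnfrsf1a, the receptor for TNF, was at 3.44, 3.93 and 3.80 at 3 h and at 4.14, 4.35 and 4.17 at 6 h, with a difference of 0.50 (SE 0.15) and an adjusted P-value of 0.0726, and was called higher under 5 of the 24 alternatives (adjusted P-values 0.0191 to 0.0498). Of 29 network genes 3 were called higher and 0 lower, against 3.07% and 2.88% of all genes (5.95% in either direction). The 3 became 1, 1 and 2 when replicate 1, 2 or 3 of 3 h was left out and 2, 2 and 1 without those of 6 h. They included Clcf1 and Irak4, a kinase of IL-1 and Toll-like receptors, at 0.87 (SE 0.19) and -0.06 with normexp. The study chose this list on these samples, so it is not independent evidence. Among other regulators of cell death, Bcl2l1, which protects mitochondria, fell from 3.49, 3.41 and 3.45 to 2.91, 2.71 and 2.63 (difference -0.70, SE 0.13).

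Enzymes against oxidants moved both ways. Of 23 genes of the antioxidant and metal response 2 were called higher and 3 lower, against 3.07% and 2.88% of all genes. The 3 lower calls became 1, 0 and 1 when replicate 1, 2 or 3 of 3 h was left out and 0, 0 and 1 without those of 6 h, and the 2 higher ones 1, 2 and 2, and 1, 2 and 1. Sod2, the superoxide dismutase of mitochondria, rose by 0.65 (SE 0.15), and Hmox1, heme oxygenase 1, had a difference of 1.08 (SE 0.30) that was not called. Sod3, the extracellular enzyme, fell by 0.44 (SE 0.11), and Mt1, a metallothionein, by 0.71 (SE 0.18), each with its call lost under 15 of the 24 alternatives. Sat1, which acetylates polyamines, fell by 0.74 (SE 0.12) and Slc7a2, which carries arginine, by 0.69 (SE 0.15) at its brightest probe. The other probes of Slc7a2 disagreed, at -0.67 (SE 0.20) and 1.35 (SE 0.41), and neither was called. The last of these was well above background on 0 arrays of 3 h and all 3 of 6 h. Edem1, of the disposal of misfolded proteins, fell by 0.57 (SE 0.10) at its bright probe, with the others at -0.15 and -0.05.

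The other lists held few calls, to be read against 3.07% of all genes called higher and 2.88% lower, and none of those in the next 4 lists was called with normexp. Of 19 heat shock genes 2 rose, Chordc1, a helper of Hsp90, by 0.59 (SE 0.15) and Hspa8 by 0.81 (SE 0.21) at 1 of its 4 probes. Of 29 genes of glycolysis and hypoxia 0 rose and 3 fell, which besides Ddit4 and Slc2a1 were P4ha1, of collagen hydroxylation, by 0.40 (SE 0.10). Under the 24 alternatives the call was lost 15 times for P4ha1 and 14 times for Chordc1. Of 20 genes of JAK-STAT signaling 1 rose and 1 fell, and Pim3, a kinase induced by that pathway, was the one lower, by 0.57 (SE 0.12). Of 25 cytokine receptors 1 rose, Il13ra1, by a dim probe. Among markers of other cell types, Emcn of endothelium fell by 0.47 (SE 0.12), Elavl4 of neurons rose by 0.90 (SE 0.22) and Cd8a of lymphocytes, well above background on 1 array of 3 h, had a difference of 1.77 (SE 0.48). Under the 24 alternatives the call was lost 13 times for Emcn and 14 times for Elavl4, and with normexp the differences of Elavl4 and Cd8a were -0.49 and -0.48. Linear levels summed over each list were 69.7 to 84.7 on the arrays of 3 h and 66.5 to 78.1 on those of 6 h for endothelium, 8.87 to 16.5 and 10.7 to 12.9 for lymphocytes and mast cells, and 6.6 to 7.63 and 6.83 to 7.39 for axons and neurons.

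**Figure D4:**
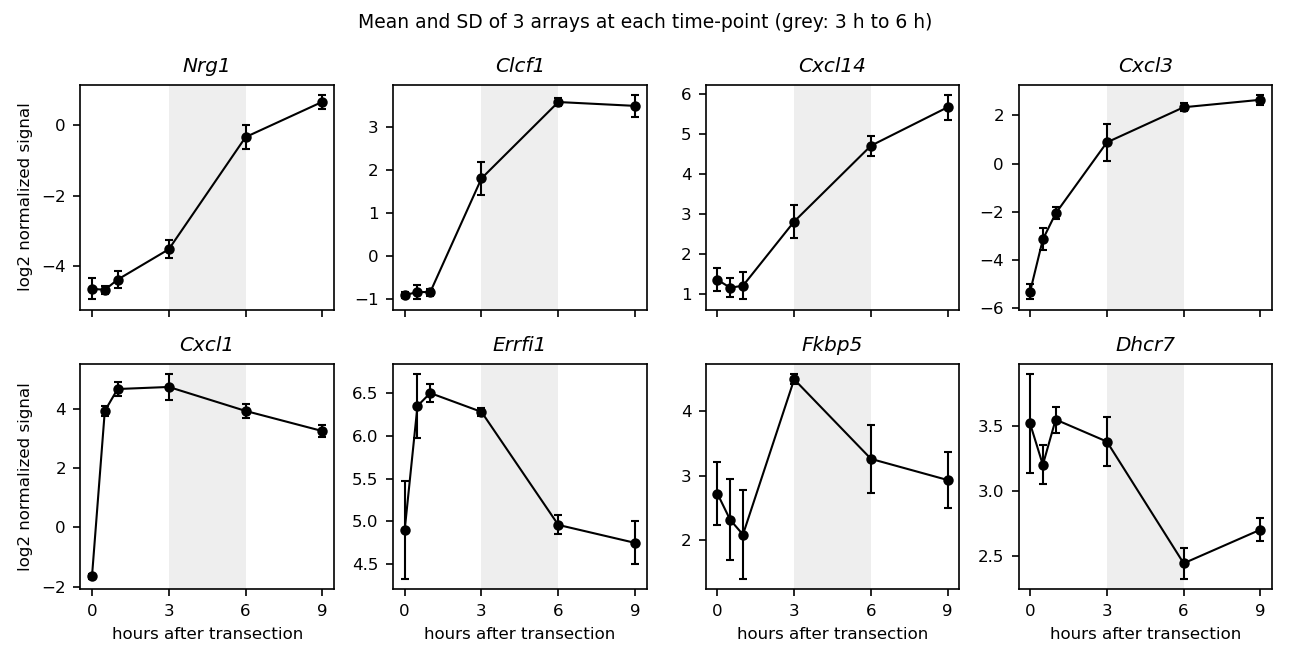
Mean log2 normalized signal and SD of 3 arrays (vertical axes, scaled to each gene) against hours after transection for 8 genes, with the step from 3 h to 6 h in grey. Nrg1 climbs most within the grey band, Errfi1 comes down from a high at 1 h, the means of Cxcl1 and Fkbp5 are highest at 3 h, and Dhcr7 is lower at 6 h and 9 h than at any earlier time-point.

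The steps on either side, which share the arrays of 3 h or of 6 h with this one, were called by the same rule. Of the 27187 genes 3012 (11.1%) were called at 3 h against 1 h, and 4 (0.0147%) at 9 h against 6 h. Whether the steps differ for a given gene was not tested. Apart from Nppc, the genes with the largest rises held their level or rose on, with Ccl12 at 1.81, Cxcl14 at 5.66, Vgf at 0.38 and Clcf1 at 3.49 at 9 h. Among those with the largest falls, Depp1 was at 0.87 and Exo1 at -2.04 at 9 h, while Tmem40 went from -2.24 at 6 h to -1.62, Dcx from -3.14 to -2.66 and Ptprr from -0.87 to -0.42.

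**Figure D5:**
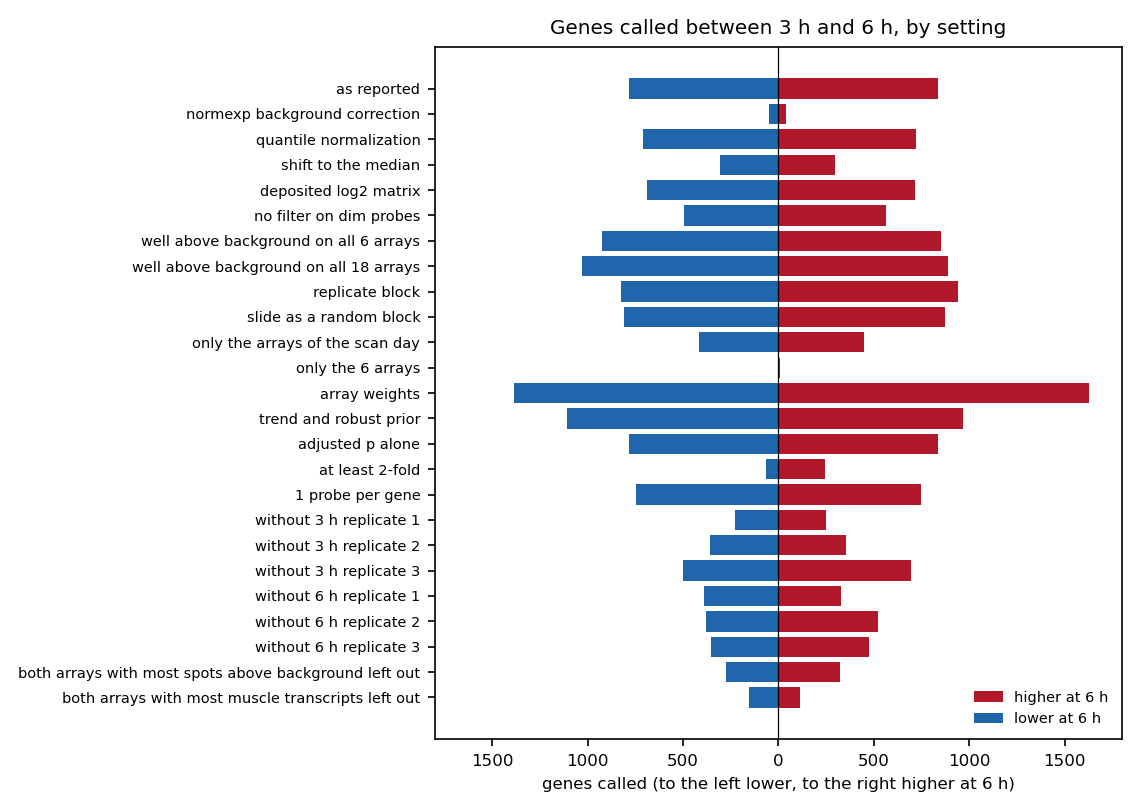
Genes called between 3 h and 6 h (horizontal axis, higher to the right and lower to the left) as reported and under each of the 24 alternatives (rows). The counts run from 11 in a fit of the 6 arrays alone to 3017 with array weights, and stand at 1617 as reported.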

How the data were processed

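The authors deposited the scanner output of 18 one-colour Agilent arrays (Feature Extraction 10.5.1.1 per the file headers), whose processed signal is a linear intensity with background subtracted and spatial trends removed, and a matrix of log2 values that hold 1 distribution on all arrays, as quantile normalization gives; scale and direction were settled by rank against the scanner values. Pooling of RNA is not given in the sources used here. The array's annotation is on rn4.

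Control and outlier spots were dropped, intensities were turned to log2 and centred on the 75th percentile of the array, and repeated spots averaged. Of 41012 probes, 32115 were tested, those that the scanner called well above background throughout 1 or more of the 6 groups, and 21307 of 41012 were named through RefSeq. limma 3.58.1 (R 4.3.3) fitted 6 group means (prior degrees of freedom 1.94). A gene is called if any probe is, and its brightest tested probe is reported. The 30 leading genes have a RefSeq symbol, are called, are well above background on all 6 arrays and show groups that do not overlap. Within lists, called members with the largest changes are named, and others only with their values. Members, lists and tests were chosen with earlier results of these data known. The 24 alternatives changed the background correction, scaling, filters, variance model or arrays, 2 of them added after seeing the data. The number of arrays limits the precision. The fit was tested on simulated data. Some called or tested members of the lists are counted but not reported by name here.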

Additional observations from a re-analysis of the deposited data

How the results depend on the processing

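Counts are given as all, higher and lower. They were 88, 40 and 48 with normexp, 600, 295 and 305 when arrays were centred on the median, 1059, 562 and 497 without a filter on dim probes, 862, 447 and 415 in the 11 arrays of the scan day, 11, 6 and 5 in the 6 arrays alone, 3017, 1629 and 1388 with array weights, and 308, 243 and 65 at 2-fold or more. Leaving out 1 array gave 478 to 1198, 248 to 697 and 230 to 501. Chosen after seeing the data, leaving out both arrays with the most spots above background (3 h replicate 3 and 6 h replicate 1) gave 594, 320 and 274, and both with the most muscle transcripts (3 h replicate 2 and 6 h replicate 1) 270, 113 and 157. The cause of these shifts was not tested, apart from the fewer arrays or higher limit that some settings impose. The other alternatives stayed within 1.5 times the reported counts. With slide as a random block (correlation -0.009) 1681 genes were called. With a replicate block 1767 genes were called, 942 higher and 826 lower, 1483 of them also called without it, but same-numbered arrays deviated apart (correlations -0.21, -0.26 and -0.13), so the numbers do not pair the samples.

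Of the 30 leading genes 1 was called under all 24 alternatives, 5 were lost only in the fit of the 6 arrays, and 10 were lost under 5 or more, while none changed sign. With normexp 8 of the 30 were still called, without 3 h replicate 1 or without both arrays with the most muscle transcripts 16, and in the fit of the 6 arrays 7. Steap1 was at 0.41 in the deposited matrix (adjusted P-value 0.795). Sign changes with normexp were Il1a -0.16, Ereg -0.59, Areg 0.00, Cxcl6 -0.10, Cd8a -0.48, Elavl4 -0.49, Irak4 -0.06, Mmp9 -0.17, Shh -0.40, Ccl2 0.25 and Birc3 0.04. Ccl2 was also at 0.14 with quantile normalization, 0.15 in the deposited matrix, -0.32 to 0.15 when 1 array was left out, above 0 without 3 h replicate 2 or 3 and at 0.00 without 6 h replicate 1, and 0.14 and 0.17 without the pairs above. Birc3 was at -0.31 to 0.12 when 1 array was left out, above 0 without 3 h replicate 2 or 3 or 6 h replicate 2, and at 0.07 without the first pair, where Birc2 was at -0.02. Col1a1 was at 0.00 with quantile normalization. The surplus of higher calls among dim genes bears on weak signals, which lie near background.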
